A study of Mus musculus with 4 samples.

Results

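Csf1, Il34, Csf1r, Csf2, Csf2ra, Csf2rb and Flt3 are the growth factors and receptors through which macrophages and dendritic cells are maintained. These 7 genes were taken by name from the 27998 genes listed in every file of a single-cell RNA study of mouse aorta, and all 7 were present. Csf1 encodes macrophage colony-stimulating factor and Il34 encodes a second ligand of the same receptor, Csf1r. Csf2 encodes granulocyte-macrophage colony-stimulating factor, which binds the ligand-specific alpha chain Csf2ra together with the signalling beta chain Csf2rb, a chain that the Il3 and Il5 receptors also use. Flt3 is the receptor of Flt3 ligand. Both Csf1r and Flt3 are receptor tyrosine kinases.

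Csf1r signalling sustains most resident macrophages, and stromal cells are a usual source of its ligands. Csf2 is made mainly by activated lymphocytes and stroma and acts on granulocytes, monocytes and some macrophages. Flt3 marks progenitors and conventional dendritic cells, which depend on its ligand.

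The study set intimal cells of the young aortic arch (1 library, 8 mice pooled), aged adventitia (1 library, number of mice not stated) and intimal cells of the aged descending aorta (2 libraries, called a and b here, 6 mice pooled in each) side by side. All mice were C57BL/6; no allele, agent given to the mice or sex is named, and age is given only as young or aged. Aortas were opened, trypsinised and scraped with a microscalpel in actinomycin D, a transcription inhibitor that all groups therefore share; the labels repeat this intimal protocol for the adventitia. The arch differed from the descending aorta in both region and age, so the effects of region and age cannot be told apart. The arch and the adventitia had 1 library each, and nothing says that libraries a and b were separate experiments, so their spread may be technical.

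The promoters of a receptor found in myeloid cells and of a ligand found in stroma are shown because their RNA lay in opposite classes of cells. The sequences are from RefSeq on GRCm38.p6 and run 5′ to 3′ over 300 bases that lie mostly before the gene's start in RefSeq, which can differ from the GENCODE start, and end 50 bases after it. Capitals mark GAGGAA, the core run of sites for PU.1 (Spi1), the factor that directs macrophage development; GAGGAA and its reverse TTCCTC were both searched, and the run contains the GGAA common to the wider ETS family. The Csf2ra window is chr19:61228369-61228668 and the Csf1 window chr3:107760420-107760719, both on the minus strand.
Csf2ra: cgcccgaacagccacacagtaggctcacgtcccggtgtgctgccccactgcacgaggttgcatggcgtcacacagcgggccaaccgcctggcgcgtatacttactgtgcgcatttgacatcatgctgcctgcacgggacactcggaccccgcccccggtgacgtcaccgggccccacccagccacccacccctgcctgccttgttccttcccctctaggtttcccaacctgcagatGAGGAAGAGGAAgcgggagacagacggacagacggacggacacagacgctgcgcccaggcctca
Csf1: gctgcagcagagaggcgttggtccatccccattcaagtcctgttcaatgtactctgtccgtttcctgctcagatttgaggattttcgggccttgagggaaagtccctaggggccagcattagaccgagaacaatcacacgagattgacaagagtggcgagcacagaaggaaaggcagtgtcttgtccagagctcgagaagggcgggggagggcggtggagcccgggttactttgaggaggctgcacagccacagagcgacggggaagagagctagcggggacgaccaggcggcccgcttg
Csf2ra held 2 matches, at bases 237 and 243 counted from 1 at the 5′ end of the window. Csf1 held 0. Of 32851 mouse promoters of this length, 28.3% held at least 1 match and 4.82% held at least 2. A match is a run of letters and not an occupied site. Promoters were searched for 4 of the 7 genes, and the other 2 searched, Csf2 and Flt3, held 0. Il34 and Csf2rb had no entry among the promoters used. The promoter of Csf1r was left out of the search, so its matches are not known.

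The genes lie on separate chromosomes of the GRCm38 build, and GENCODE M21 annotates each as protein coding. Csf1 (ENSMUSG00000014599) spans chr3:107741048-107760469 and Il34 (ENSMUSG00000031750) chr8:110741829-110805924, both on the minus strand. Csf1r (ENSMUSG00000024621) spans chr18:61100598-61132149 on the plus strand. Csf2 (ENSMUSG00000018916) spans chr11:54247271-54249667 and Csf2ra (ENSMUSG00000059326) chr19:61223957-61228429, both on the minus strand. Csf2rb (ENSMUSG00000071713) spans chr15:78325752-78353847 on the plus strand, and Flt3 (ENSMUSG00000042817) chr5:147330741-147400489 on the minus strand. Csf2rb has a close copy nearby, Csf2rb2, at chr15:78282507-78305721, which in mouse encodes a beta chain specific to the Il3 receptor. Of the 50-base words in Csf2rb transcripts, 12.3% also occur in Csf2rb2. In the last 500 bases of protein-coding transcripts, 13.4% of the Csf2rb words and 2.33% of the Csf2rb2 words occur in the other gene. How reads in shared sequence were counted is not given, so the effect on Csf2rb counts is not known.

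After filters, 2122 arch, 7784 adventitial, 1986 descending a and 2085 descending b cells were analysed, with median depths of 6951.5, 2465.5, 5198.5 and 4876 unique molecular identifiers (UMIs) per cell. Cells were clustered with the 7 genes left out, and clusters were named from marker genes that also leave them out. Macrophage-like cells numbered 115, 533, 81 and 70 in that order of libraries, fibroblast-like cells 436, 1419, 336 and 646, and endothelial-like cells 1250, 364, 1464 and 1280. In the clusters called macrophage-like, 13 of 13 and 12 of 13 macrophage markers were detected. Endothelial-like cells of the adventitia lay almost wholly (360 of 364) in a cluster led by Gpihbp1, the lipase anchor of capillaries, which differed from the intimal clusters. Likewise the adventitial fibroblasts lay mostly in clusters led by Cxcl14 and by Ptx3, and the intimal ones in a cluster led by Dact2. Levels are given in CPM, the UMIs of a gene scaled to 1000000 UMIs of its class and library. Their intervals are exact Poisson intervals at 95%, and they cover nothing but counting error. In the 3' kit used, a transcript is counted near its end, so CPM needs no length correction. Classes were compared across libraries with edgeR's quasi-likelihood test on summed UMIs, adjusted over all genes tested with a threshold of 0.05.

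**Figure D1:**
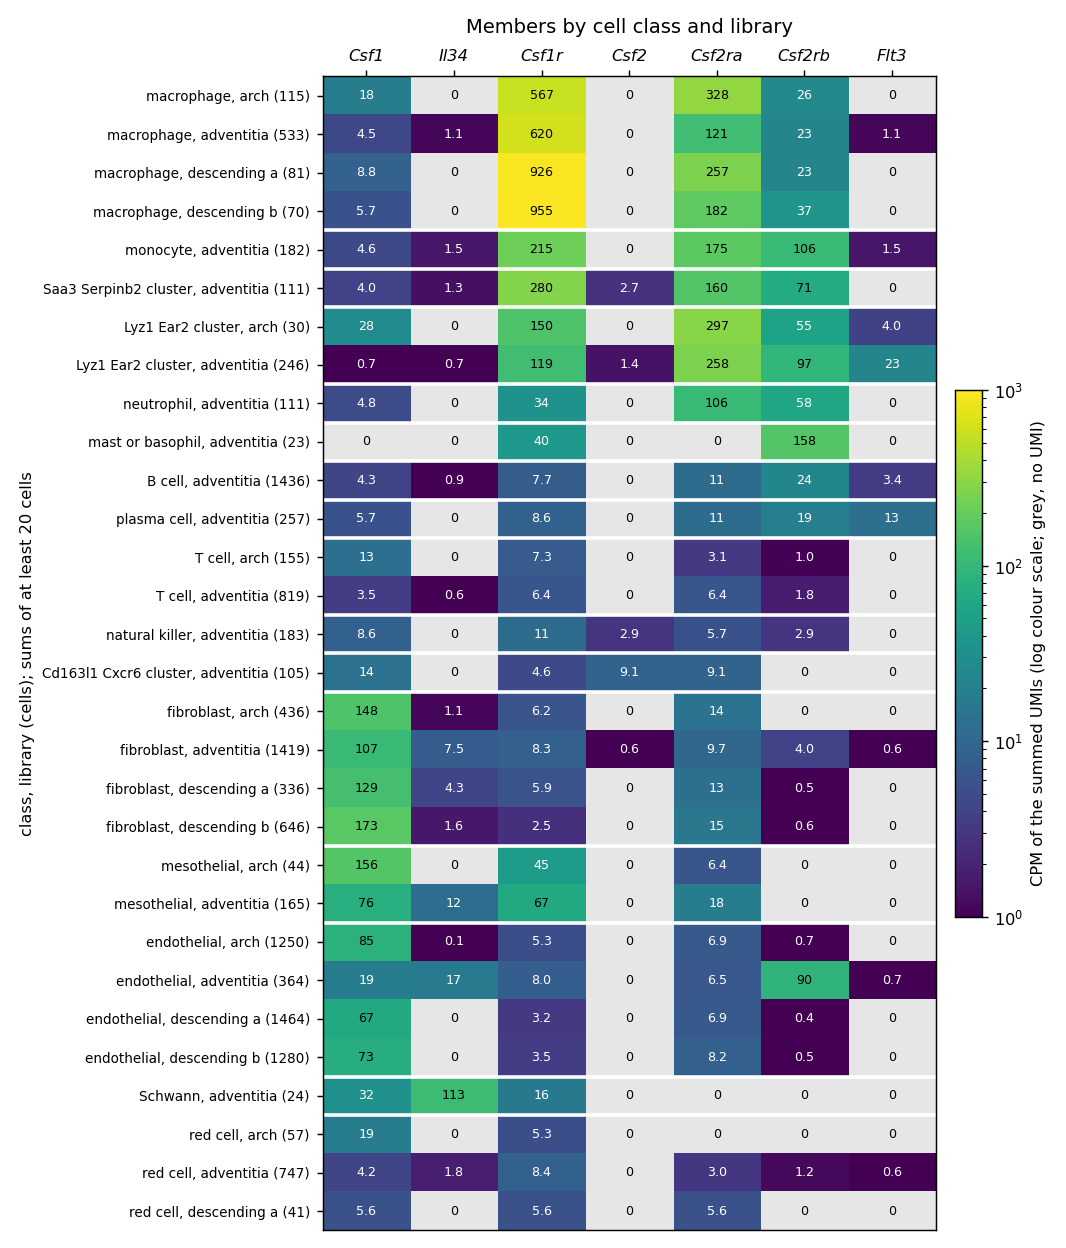
Level of each of the 7 genes (columns) in each cell class and library (rows) of at least 20 cells, in CPM on a log colour scale; values below 1 take the colour of 1, and grey marks no UMI. Csf1 is brightest in the fibroblast, mesothelial and intimal endothelial rows, at 66.8 to 173, and Csf1r in the macrophage rows, at 567 to 955.

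Csf1 RNA was carried by stromal and endothelial cells and was near background in the macrophages that bear its receptor. Fibroblast-like cells had 148 (134 to 163) CPM in the arch, 107 (98.5 to 117) in the adventitia, 129 (113 to 146) in descending a and 173 (159 to 188) in descending b. Endothelial-like cells had 85.5 (80.4 to 90.9), 18.8 (12.3 to 27.6), 66.8 (61.9 to 72.0) and 73.1 (67.6 to 79.0) CPM in the same order. The level in fibroblasts exceeded that in endothelial cells of the same library in all 4 libraries. Macrophage-like cells had 18.1 (10.3 to 29.4), 4.49 (1.94 to 8.85), 8.76 (1.81 to 25.6) and 5.68 (0.688 to 20.5) CPM, below every other of these 3 classes in each library. T-cell-like cells, which should lack the gene, had 12.5 CPM in the arch and 3.50 CPM in the adventitia, and red cells 18.5, 4.22 and 5.59 CPM in the arch, adventitia and descending a. Macrophage Csf1 was thus within counting error of these background cells.

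By edgeR, Csf1 was higher in fibroblasts than in endothelial cells by 1.49 ± 0.28 on the log2 scale (SE; adjusted p = 0.00215), where 17.2% of genes tested were called higher and 16.1% lower. In macrophages it was lower than in endothelial cells (log2 -2.24 ± 0.38, adjusted p = 0.00114; 17.9% of genes higher and 21.1% lower) and lower than in fibroblasts (log2 -3.73 ± 0.38, adjusted p = 3.37e-05; 16.6% of genes higher and 20.3% lower). Each of these fits used 12 sums, 3 classes in 4 libraries, with the library as a block.

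**Figure D2:**
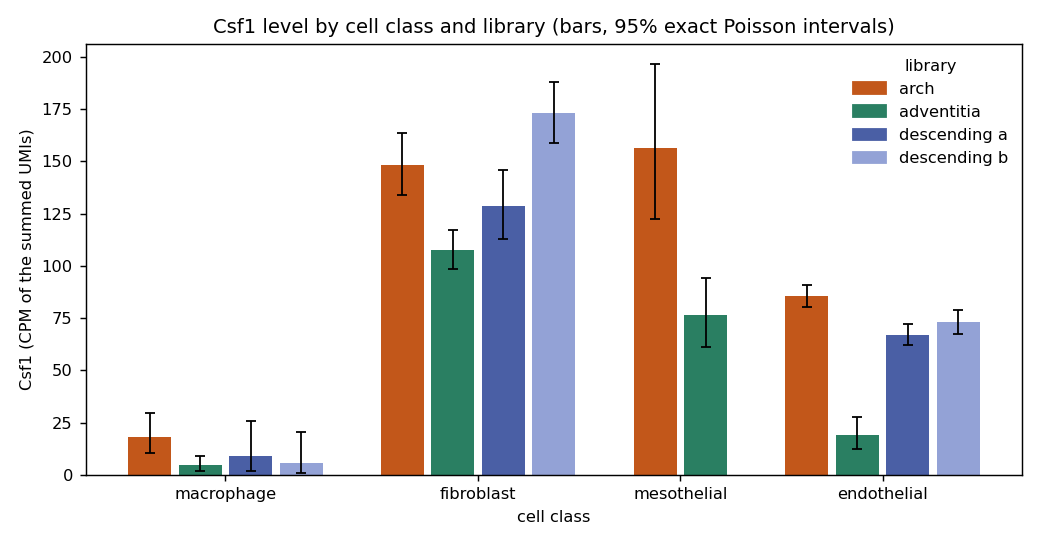
Csf1 in CPM (vertical axis) in macrophage-, fibroblast-, mesothelial- and endothelial-like cells, 1 bar for each library from arch to descending b, with 95% exact Poisson intervals as error bars. Fibroblasts reach 107 to 173, macrophages stay at 4.49 to 18.1, and the endothelial bar of the adventitia, at 18.8, is far below the intimal ones.

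Mesothelial-like cells, the lining cells of the pleura and other serous surfaces, also carried Csf1. The level was 156 (122 to 196) CPM in the 44 such cells of the arch and 76.4 (61.2 to 94.2) CPM in the 165 of the adventitia; the descending libraries held 2 and 1 such cells and gave no value. In the arch this was as high as in fibroblasts within counting error.

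Although the level was higher in fibroblasts, the more numerous endothelial cells held most of the intimal Csf1. Of all Csf1 UMIs, endothelial-like cells held 66.5% in the arch, 3.60% in the adventitia, 73.3% in descending a and 53.5% in descending b. Fibroblast-like cells held 25.9%, 73.4%, 25.5% and 45.7%. These shares follow the cells that scraping released as well as the RNA of each cell.

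The share of cells with at least 1 Csf1 UMI showed the same order of classes. It was 53.9%, 29.8%, 48.2% and 52.5% of fibroblasts, 46.6%, 5.77%, 31.0% and 31.1% of endothelial cells and 12.2%, 1.5%, 3.70% and 2.86% of macrophages, in the order arch, adventitia, descending a and descending b. Cells were then thinned to 2000 UMIs, and cells with fewer were left out, here and below. In the adventitia this kept 275 of 364 endothelial cells, 478 of 533 macrophages and 1311 of 1419 fibroblasts. After thinning, the shares were 27.1%, 18.2%, 20.8% and 26.6% of fibroblasts, 15.2%, 4.36%, 11.5% and 12.1% of endothelial cells and 2.61%, 0.837%, 2.56% and 1.54% of macrophages. Of these 3 classes, fibroblasts had the largest share in each library, also after thinning.

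Among the intimal clusters named endothelial-like, Csf1 varied less than 2-fold. It was highest in a cluster of the arch led by Ahsg, Edn1 and Emcn (103 CPM) and in the cluster led by Tac2, Coch and Frzb (102 CPM in the arch, 86.8 in descending a and 91.6 in descending b). The cluster led by Nkx2-3, Gja5 and Mal had 63.6, 52.6 and 52.0 CPM in the same libraries, and the Gpihbp1-led cluster of the adventitia 19.0 CPM. An unnamed cluster led by Ccl21a, Nts and Mmrn1 had 12 of 13 endothelial and 6 lymphatic endothelial markers detected. Its Csf1 level was 20.5 (4.22 to 59.8) CPM in descending a, from 3 UMIs in 20 cells. In the adventitia it was 57.4 (28.6 to 103) CPM, from 11 UMIs in 37 cells. Among adventitial fibroblasts, the cluster led by Ptx3, Cxcl13 and Tnfaip6 had 133 CPM and the one led by Cxcl14, Col15a1 and Apod 93.4 CPM. These are descriptions of clusters, with no test.

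Between libraries, Csf1 in endothelial cells fell in the adventitia relative to the descending aorta (log2 -1.81 ± 0.25, edgeR adjusted p = 6.25e-07; 19.4% of genes higher and 17.9% lower) and did not pass in the arch (log2 0.36 ± 0.15, adjusted p = 0.140; 6.21% higher and 4.95% lower). In fibroblasts it passed neither in the adventitia (log2 -0.34, adjusted p = 0.252; 14.4% higher and 10.7% lower) nor in the arch, where edgeR and DESeq2 called 0 of 5 members and 0 had an unadjusted p under 0.05 (2.81% of genes higher and 2.19% lower). The change in fibroblasts differed from that in endothelial cells by 1.51 on the log2 scale (adventitia minus descending, edgeR adjusted p = 0.000177; 17.9% of genes passed this test of the difference). Every comparison between libraries had 1 residual degree of freedom, from the 2 descending libraries, and assumes that a lone library varies as they do.

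Il34 was scarce, with 114 UMIs in all, and 95 of these were in the adventitia. Endothelial-like cells had 24 UMIs, 17.4 (11.1 to 25.8) CPM, in the adventitia, against 0 UMIs in descending a and in descending b; the arch had 1 UMI. Fibroblast-like cells had 37 UMIs, 7.48 (5.27 to 10.3) CPM, in the adventitia and 3 UMIs, 1.10 (0.227 to 3.22) CPM, in the arch, against 8 UMIs, 4.25 (1.84 to 8.38) CPM, in descending a and 5 UMIs, 1.58 (0.514 to 3.69) CPM, in descending b. The highest level was in 24 Schwann-like cells of the adventitia, 113 (45.5 to 233) CPM from 7 UMIs in 5 cells. Mesothelial-like cells of the adventitia had 12.3 (6.72 to 20.6) CPM. T cells and red cells of the adventitia had 0.58 and 1.81 CPM, below the adventitial fibroblast, endothelial, mesothelial and Schwann-like values and about the level of arch and descending b fibroblasts.

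In endothelial cells the ratio of Il34 in the adventitia to that in the descending aorta was 111. It counts the descending libraries at a floor of 3 UMIs over their 19167061 endothelial UMIs (0.157 CPM). The adventitial level of 17.4 CPM enters without its counting error, so 111 is not a lower limit. The edgeR test passed (adjusted p = 5.15e-09). In fibroblasts the ratio of summed levels was 2.90 (1.51 to 5.95), and the test passed narrowly (log2 1.65 ± 0.61, adjusted p = 0.0316). That call was lost with DESeq2 (log2 1.58, adjusted p = 0.9998) and with doublets kept (log2 1.62, adjusted p = 0.0828). The change in fibroblasts differed from that in endothelial cells by -7.61 on the log2 scale (adjusted p = 6.06e-05), a fitted value that depends on the prior count since the descending endothelium had no UMI. Over all 4 libraries, Il34 passed the test against endothelial cells neither in fibroblasts (log2 2.22 ± 1.12, adjusted p = 0.158) nor in macrophages (log2 -2.35 ± 1.95, adjusted p = 0.375). Genes on the opposite strand overlap Il34, Csf2 and Flt3, and they held at most 2 UMIs each.

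**Figure D3:**
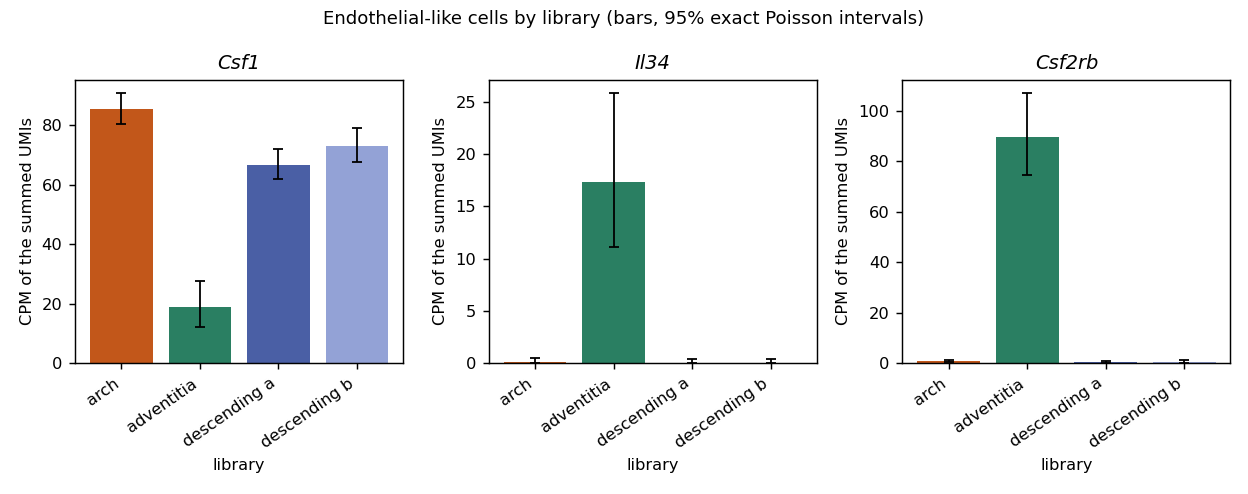
Csf1, Il34 and Csf2rb in CPM (vertical axis) in endothelial-like cells of each library, with 95% exact Poisson intervals. The adventitial cells have the lowest Csf1, at 18.8, and the highest Il34 and Csf2rb, at 17.4 and 89.7.

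Csf1r, the receptor of both ligands, was high in every macrophage library. Macrophage-like cells had 567 (518 to 619) CPM in the arch, 620 (584 to 658) in the adventitia, 926 (827 to 1033) in descending a and 955 (856 to 1063) in descending b. A UMI was found in 99.1%, 82.7%, 86.4% and 95.7% of these cells, and in 76.5%, 69.9%, 74.4% and 86.2% after thinning to 2000 UMIs. Fibroblasts had 2.53 to 8.29 CPM and endothelial cells 3.17 to 7.96 CPM, close to T cells (7.30 in the arch and 6.42 in the adventitia) and red cells (5.30 to 8.44). Csf1r in fibroblasts and endothelium was thus at background. At that level the adventitia passed against the descending aorta in fibroblasts (log2 1.26 ± 0.49, edgeR adjusted p = 0.0426; log2 1.20 and adjusted p = 0.9998 with DESeq2) and not in endothelial cells (log2 1.33, adjusted p = 0.0714).

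By edgeR, Csf1r was higher in macrophages than in endothelial cells by 7.72 ± 0.39 (log2, adjusted p = 1.24e-06) and than in fibroblasts by 7.26 ± 0.39 (log2, adjusted p = 1.24e-06). Hmgxb3 overlaps Csf1r by 873 bases on the opposite strand, and whether reads were counted by strand is not given in the sources used here. Macrophages held 15 Hmgxb3 UMIs, 4.46 CPM, far below Csf1r.

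Monocyte-like cells also carried Csf1r, with 215 (181 to 253) CPM in the adventitia, 444 (271 to 685) in descending a and 395 (234 to 624) in descending b, where they numbered 182, 11 and 10. An unnamed myeloid cluster led by Saa3 and Serpinb2 in the adventitia had 280 CPM. Another unnamed cluster, led by Lyz1 and Ear2, had 150 in the arch, 119 in the adventitia and 126 CPM in descending b. Neutrophil-like cells had 33.8 CPM. Of all Csf1r UMIs, macrophage-like cells held 76.7%, 59.9%, 79.6% and 81.8% in the order arch, adventitia, descending a and descending b.

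**Figure D4:**
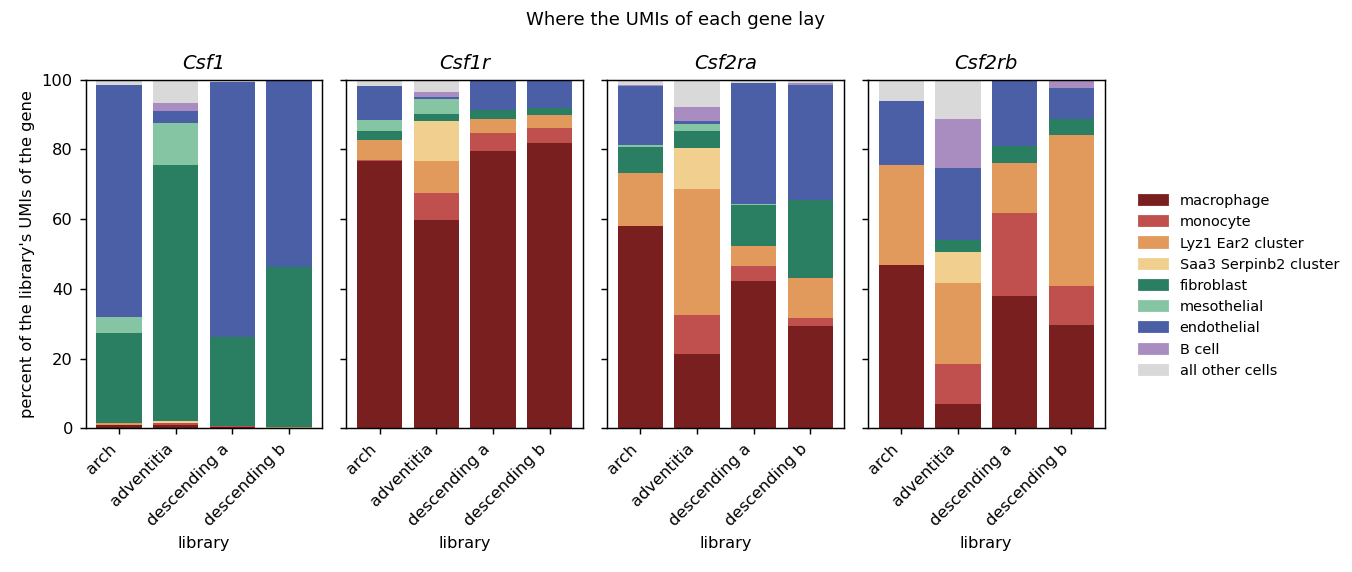
Share of each library's UMIs of Csf1, Csf1r, Csf2ra and Csf2rb (percent, vertical axis) by the cell class that holds them, in stacked bars, 1 bar for each library. Csf1 is mainly endothelial in the intima and fibroblast in the adventitia (73.4%), while macrophages hold 59.9% to 81.8% of Csf1r.

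Mesothelial-like cells held Csf1r beside Csf1. The level of Csf1r was 44.9 (27.8 to 68.7) CPM in the arch and 66.7 (52.6 to 83.5) CPM in the adventitia, above the background classes in both. A UMI was found in 13 of 44 arch cells (29.5%) and 52 of 165 adventitial cells (31.5%), or 6.82% and 9.88% after thinning. The summed level of the 13 macrophage markers was 353 CPM in arch and 980 CPM in adventitial mesothelial cells, no higher than in T cells (394 and 1842 CPM) or red cells (403 and 1711 CPM). For each 100 marker UMIs, mesothelial cells held 12.7 Csf1r UMIs in the arch and 6.81 in the adventitia, macrophages 1.49 to 2.36 over the 4 libraries, and T cells 1.85 in the arch and 0.349 in the adventitia. Marker levels were close in mesothelial cells with and without Csf1r, at 393 and 326 CPM in the arch and 982 and 977 CPM in the adventitia. Both ligand and receptor were found in 12 arch and 22 adventitial mesothelial cells (27.3% and 13.3%); 20.1% and 11.3% would carry both if the 2 were independent. Cells with Csf1r were deeper than those without, with medians of 15793 and 7567 UMIs in the arch and 8409 and 4832 UMIs in the adventitia.

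Csf2 was almost undetected. The 4 libraries held 17 UMIs of it, 0 in the arch, 16 in the adventitia, 0 in descending a and 1 in descending b. The adventitial UMIs were spread over lymphoid clusters led by Ccl5 and Nkg7 (4 UMIs), Cd163l1 and Cxcr6 (2 UMIs in 105 cells, 9.10 CPM, 1.10 to 32.9) and Tnfrsf4 (2 UMIs), natural killer cells (1), fibroblasts (3) and the Lyz1 and Saa3 clusters (2 each). Macrophages held 0 UMIs. The gene did not pass the filter on low counts in any fit, so no difference in it was tested, and Csf2 made in tissue but below this depth would not be seen.

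Csf2ra, the receptor chain that gives specificity for Csf2, was high in macrophages and in further myeloid clusters. Macrophage-like cells had 328 (291 to 368) CPM in the arch, 121 (106 to 139) in the adventitia, 257 (206 to 317) in descending a and 182 (140 to 232) in descending b. The Lyz1 and Ear2 cluster was at the same or a higher level, with 297 (233 to 372) in the arch, 258 (232 to 286) in the adventitia and, in descending b, 197 (128 to 291) CPM. Monocyte-like cells of the adventitia had 175 (144 to 210) CPM, the Saa3 cluster 160 CPM and neutrophil-like cells 106 CPM. Macrophages held 58.1%, 21.2%, 42.3% and 29.4% of all Csf2ra UMIs, a smaller share than of Csf1r in each library. Endothelial cells had 6.51 to 8.23 CPM and fibroblasts 9.71 to 15.5 CPM. T cells of the arch and adventitia had 3.13 and 6.42 CPM and red cells 0 to 5.59 CPM. B-cell-like and plasma-like cells of the adventitia had 11.4 CPM each, above the 9.71 CPM of the adventitial fibroblasts.

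By edgeR, Csf2ra was higher in macrophages than in endothelial cells (log2 5.29 ± 0.25, adjusted p = 1.00e-06) and than in fibroblasts (log2 4.21 ± 0.24, adjusted p = 1.78e-06). It was also higher in fibroblasts than in endothelial cells, by 1.08 ± 0.24 (log2, adjusted p = 0.00585), with fibroblasts above endothelial cells in all 4 libraries. Both of these levels were far below those of macrophages.

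Csf2rb, the shared beta chain, was present in macrophages at a level far below that of Csf1r. Macrophage-like cells had 26 (16.5 to 39.0) CPM in the arch, 23.0 (16.5 to 31.2) in the adventitia, 23.4 (10.1 to 46.0) in descending a and 36.9 (19.7 to 63.2) in descending b. The Poisson intervals of the 4 libraries overlap. Higher levels were found in the Lyz1 and Ear2 cluster, with 55.4 in the arch, 96.9 in the adventitia and 150 CPM in descending b. Monocyte-like cells of the adventitia had 106 (82.4 to 134) CPM, 23 mast-like cells 158 CPM from 8 UMIs, the Saa3 cluster 71.0 CPM and neutrophil-like cells 58.0 CPM. B-cell-like cells had 23.7 CPM and plasma-like cells 19.3 CPM, against 1.75 CPM in T cells of the adventitia.

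Outside blood-lineage cells, Csf2rb was found mainly in the adventitial endothelium. The unnamed adventitial cluster led by Ccl21a, Nts and Mmrn1 had 26.1 (8.47 to 60.9) CPM, from 5 UMIs in 3 of 37 cells. Endothelial-like cells of the adventitia had 124 UMIs, 89.7 (74.6 to 107) CPM, while those of the arch had 9 UMIs, 0.742 CPM, against 4 UMIs in each descending library, 0.384 and 0.457 CPM. A UMI was found in 23.1% of the adventitial endothelial cells, or in 16.0% of the 275 cells kept after thinning. The ratio of adventitial to descending levels was 215 (106 to 509), and the edgeR test passed (log2 7.78 ± 0.39, adjusted p = 1.61e-16). The change differed from that of macrophages by 7.74 on the log2 scale (adjusted p = 8.93e-13; 10.5% of genes passed this test of the difference). Adventitial endothelial cells held 1127 Csf2rb UMIs for each 100 of Csf1r, adventitial B cells 307 and adventitial macrophages 3.71. Macrophages held 6.87% of the adventitial Csf2rb UMIs, B cells 13.9% and the Lyz1 and Ear2 cluster 23.3%. The 13 macrophage markers, all detected in each, summed to 1297 CPM in adventitial and 397 CPM in arch endothelial cells, against 203 and 195 CPM in the descending ones. Adventitial T cells had 1842 CPM of these markers and 1.75 CPM of Csf2rb. The part of such RNA in the Csf2rb level was not tested. Csf2ra in these endothelial cells was 6.51 (2.98 to 12.4) CPM, the background level, and Csf2rb2 10.1 (5.54 to 17.0) CPM. In fibroblasts Csf2rb reached 4.05 CPM in the adventitia and 0.53 and 0.63 CPM in the descending libraries (log2 2.84 ± 1.14, adjusted p = 0.0491), a call that was lost with DESeq2 and with doublets kept.

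The comparison of macrophages with endothelial cells in Csf2rb over all 4 libraries did not pass (log2 3.40 ± 1.34, edgeR adjusted p = 0.0678). Without the adventitia it did (log2 5.94, adjusted p = 2.79e-07). Against fibroblasts Csf2rb was higher in macrophages by 6.18 ± 1.74 (log2, adjusted p = 0.0177), and this call was lost when the arch or either descending library was left out.

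Flt3 was found in few cells. Of its 78 UMIs, 71 were in the adventitia, and the Lyz1 and Ear2 cluster held 33 of these, 23.0 CPM. Plasma-like cells held 18 of the 71, 12.9 CPM, and B-cell-like cells 12, 3.43 CPM. The Lyz1 and Ear2 cluster had 3.96 CPM in the arch, from 1 UMI. In descending b it had 23.7 (4.88 to 69.2) CPM, from 3 UMIs in 1 of 16 cells. When the mononuclear phagocytes were clustered again, 23 of the adventitial UMIs fell in 1 subcluster of 53 cells led by Xcr1, Sept3 and Clec9a, genes of cross-presenting dendritic cells. Its Flt3 level was 67.2 CPM, with a UMI in 18 cells (34.0%). The same subcluster had 1 Csf1r UMI, 2.92 CPM, beside 117 CPM of Csf2ra and 61.3 CPM of Csf2rb. A subcluster led by Wnt11, Cd209a and Upb1 had 8.87 CPM of Flt3, with 161 CPM of Csf1r, 300 CPM of Csf2ra and 106 CPM of Csf2rb. Adventitial macrophage subclusters led by Cd209d and Ccl8 and by Ccl12 and Hspa1a had 671 and 567 CPM of Csf1r, 99.0 and 144 CPM of Csf2ra and 26.4 and 21.1 CPM of Csf2rb. The receptors were thus divided unevenly among myeloid subclusters, from mainly Csf1r to mainly Csf2ra and Csf2rb. Flt3 was not tested, since it did not pass the filter on low counts.

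The intima held 2 macrophage types: an intima resident type, named from markers such as Itgax, Mmp12 and Trem2, and a Lyve1 type, named from markers such as Lyve1, Folr2 and F13a1. The resident type numbered 74 cells in the arch, 25 in descending a and 17 in descending b, and the Lyve1 type 41, 56 and 53. The adventitia held 0 cells of the resident type, and its 533 macrophages all lay in the cluster named for the Lyve1 type; when phagocytes were clustered again, 267 of them kept that name and 261, led by Ccl12 and Hspa1a, fell in a macrophage subcluster with no type. Csf1r was 399, 600 and 441 CPM in the resident type of the arch, descending a and descending b, against 1103, 1087 and 1133 CPM in the Lyve1 type. Csf2ra ran the other way, with 395, 538 and 287 CPM in the resident type, against 114, 118 and 146 CPM in the Lyve1 type. For both receptors this order of the 2 types held in each of the 3 libraries. The share of all genes with an order held in this way was not counted.

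By edgeR over 6 sums with the library as a block, Csf1r was lower in the resident type (log2 -1.15 ± 0.19, adjusted p = 0.000375) and Csf2ra higher (log2 1.77 ± 0.25, adjusted p = 8.30e-05), where 12.3% of genes were called higher and 13% lower. A Csf2ra UMI was found in 87.8%, 92.0% and 88.2% of resident-type cells, against 43.9%, 33.9% and 43.4% of Lyve1-type cells; after thinning the shares were 48.6%, 69.6% and 40.0% in the resident type, against 26.8%, 21.8% and 24% in the Lyve1 type. Most resident-type cells carried a UMI of both receptors, 87.8% in the arch, 72.0% in descending a and 88.2% in descending b. If the 2 genes were independent, 86.7%, 69.9% and 88.2% would carry both. Of Lyve1-type cells, 43.9%, 32.1% and 43.4% carried both in the same order. Csf2rb was 25.2, 8.82 and 11 CPM in the resident type, against 28.5, 30.6 and 46.0 CPM in the Lyve1 type. It lay below the Lyve1 type in each library but was too sparse to pass the filter in this fit. The 533 adventitial macrophages together had 620 CPM of Csf1r, 121 CPM of Csf2ra and 23.0 CPM of Csf2rb, and the 267 that kept the Lyve1 name had 671, 99.0 and 26.4 CPM.

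**Figure D5:**
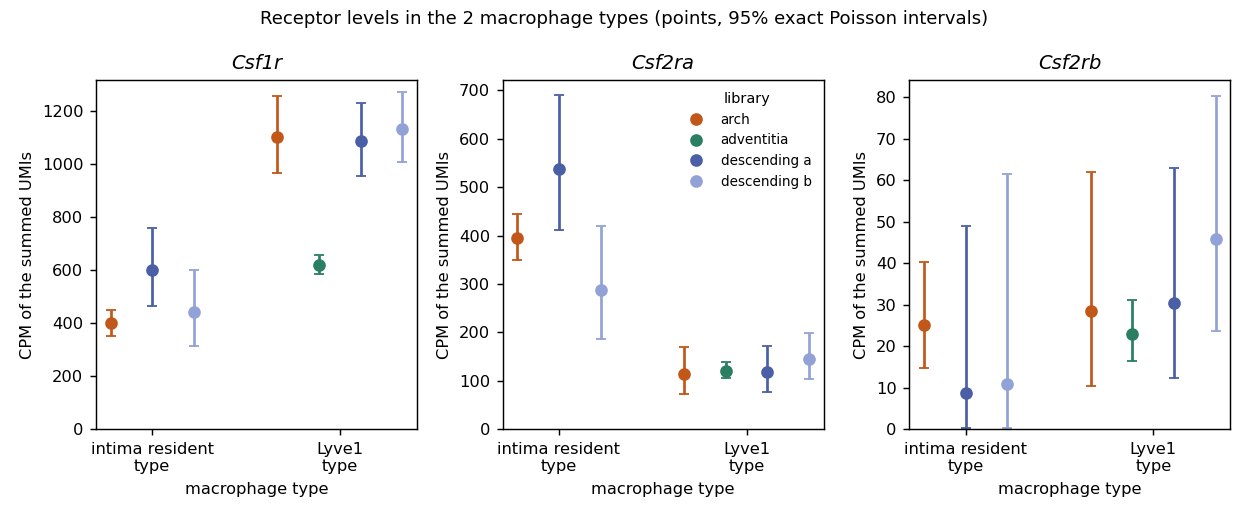
Csf1r, Csf2ra and Csf2rb in CPM (vertical axes) in the intima resident type and the Lyve1 type of macrophage, with each library shown as a point with its 95% exact Poisson interval; the adventitial point stands for all 533 macrophages, of which 261 had no type when clustered again. In the 3 intimal libraries Csf1r is at 399 to 600 in the resident type, against 1087 to 1133 in the Lyve1 type, and Csf2ra is at 287 to 538, against 114 to 146.

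Within macrophages, edgeR and DESeq2 called 0 of 4 members between libraries, with 2 at an unadjusted p under 0.05 in the arch and 1 in the adventitia. Csf1r in the arch was lower than in the descending aorta by the fitted value (log2 -0.64 ± 0.23, edgeR adjusted p = 0.0884), and Csf2ra was higher (log2 0.67 ± 0.25, adjusted p = 0.10); 2.67% of genes were called higher and 2.89% lower. The arch held 74 resident-type cells among its 115 macrophages, against 25 of 81 and 17 of 70 in the descending libraries. The arch change in endothelial cells minus that in macrophages was 1.28 for Csf1r (log2, edgeR adjusted p = 0.0123; 1.7% of genes passed), with the endothelial level at background. No member passed that test of fibroblasts against macrophages (1.02% of genes passed) or against endothelial cells (2.32% passed). Within a macrophage type, a split chosen after seeing the data, the values were smaller in size. Csf1r was -0.01 in the Lyve1 type and -0.36 in the resident type, and Csf2ra -0.22 and -0.06 (log2, arch minus descending). Whether the mix of macrophage types bears on the arch values was not tested. Relative to the descending aorta, the adventitia had log2 values of -0.38 for Csf1r (adjusted p = 0.398) and -0.63 for Csf2ra (adjusted p = 0.120), where 5.66% of genes were called higher and 4.52% lower. Csf1 and Csf2rb, both sparse in macrophages, had log2 values of 1.40 and -0.12 in the arch and -0.45 and -0.17 in the adventitia. With all 533 adventitial macrophages set against the Lyve1 type of the descending libraries alone, Csf1r was -0.58 and Csf2ra 0.14, so the sign of Csf2ra depends on which macrophages are summed.

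The rest of the pathway was described from a list of 15 relatives of these ligands and receptors and a list of 22 genes of their signalling and of the lineage. Several of them (among them Tyrobp, Ccr2, Cx3cr1, Irf8, Kit, Csf3r and Sdc1) are also markers from which clusters were named, so their differences between classes follow in part from the naming. Between macrophages and endothelial cells, 4 of 9 relatives tested were higher and 1 lower (17.9% and 21.1% of all genes), with a median log2 difference of 0.26 against -0.13 over all genes. The examples are Cx3cr1, the fractalkine receptor (log2 7.16), Ccr2, a receptor of monocyte entry (5.53), Csf3r, the granulocyte factor receptor (5.21), and the proteoglycan Sdc1 (-3.17). Of the 22 signalling and lineage genes, 11 were higher in macrophages and 4 lower, with a median of 1.12; Maf (7.49) and Spi1 (6.80) stood among those higher. Against fibroblasts, macrophages had 4 relatives higher and 0 lower of 9 (16.6% and 20.3% of all genes; median 1.49 against -0.09) and 9 signalling genes higher and 4 lower of 22 (median 0.56). Fibroblasts against endothelial cells had 1 relative higher and 3 lower of 9 (17.2% and 16.1% of all genes; median -0.12 against 0.0015) and 8 signalling genes higher and 3 lower of 22 (median 0.30).

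Between the macrophage types, 1 of 3 relatives tested was higher in the resident type, Cx3cr1 (log2 8.89), which is itself a marker of that type. Of 13 signalling genes tested, 5 were higher and 4 lower (12.3% and 13% of all genes), with a median of -0.28 against -0.03 over all genes; Irf8, a factor of monocyte and dendritic lineages (1.95), and the kinase Pim1 (1.49) were higher, and Maf (-3.10) and Cebpb (-1.14) lower.

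In adventitial endothelium, 4 of 8 relatives were higher than in the descending endothelium and 2 lower (19.4% and 17.9% of all genes; median log2 1.75 against -0.10 over all genes). Csf2rb2 (5.03), Ccr2 (4.58) and Kitl, the ligand of Kit (3.14), were higher and Sdc1 lower (-3.29). Signalling genes were higher for 14 of 22 and lower for 3 (median 1.69), among them Pparg (7.10), a nuclear receptor of lipid uptake, Cebpb (3.51), Tyrobp (2.96) and Ccnd1 (1.67). Adventitial fibroblasts had 2 of 6 relatives higher and 0 lower (14.4% and 10.7% of all genes; median 0.71 against -0.01) and 13 of 21 signalling genes higher and 1 lower (median 1.13), with Ccr2 (3.77), Il3ra (0.96), Pparg (5.50), Tyrobp (3.08) and Cebpa (2.72) among those higher. In fibroblasts too the macrophage markers summed higher, to 1366 CPM in the adventitia and 430 CPM in the arch, against 223 and 214 CPM in the descending libraries, and their part in these counts was not tested. The fibroblast clusters led by Cxcl14 and by Ptx3 and the Gpihbp1-led endothelial cluster each had 5 adipocyte markers detected. So did the B cell cluster, and the Dapl1-led T cell cluster had 4. The part of adipocyte RNA in these counts was not tested either.

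Calls by DESeq2 were fewer in the comparisons between libraries: 2 relatives and 10 signalling genes higher and 1 and 0 lower in adventitial endothelium, and 0 relatives and 6 signalling genes higher in adventitial fibroblasts. Over all genes DESeq2 also called fewer than edgeR there, with totals given under how the results depend on the processing. The list counts by DESeq2 were not compared with those totals.

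Adventitial macrophages had 1 of 6 relatives higher, Ccr2 (3.41), and 1 lower, Cx3cr1 (-1.53; 5.66% and 4.52% of all genes; median -0.46 against -0.07), and 1 of 17 signalling genes higher, Stat3 (0.91), with 0 lower (median -0.11). Arch macrophages had 0 of 6 relatives called by edgeR or DESeq2, with 1 at an unadjusted p under 0.05 (2.67% of all genes higher and 2.89% lower; median -0.12 against -0.01) and 2 of 17 signalling genes higher and 3 lower (median -0.25), with Pim1 (0.97) higher and Maf (-0.98) lower. Arch endothelium had 0 of 8 relatives higher and 2 lower, Ptprz1 (-2.28), a receptor that binds Il34, and Il3ra (-0.69; 6.21% of all genes higher and 4.95% lower; median -0.34 against -0.01), and 2 of 22 signalling genes higher and 4 lower (median -0.02). Arch fibroblasts had 0 of 6 relatives called by edgeR or DESeq2, with 2 at an unadjusted p under 0.05 (2.81% of all genes higher and 2.19% lower; median 0.30 against -0.01) and 2 of 21 signalling genes higher and 3 lower (median 0.22). In the arch, DESeq2 called 1 signalling gene, lower in endothelium, and 0 relatives.

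The genes whose levels followed each member most closely were found by Pearson's r of log2(CPM + 1) over 34 class sums of at least 20 cells, among 13171 genes that reached 10 CPM; sums of 1 library share depth and free RNA, and r is a description. Csf1 was followed most closely by Fstl1 (0.926), Nckap1 (0.926), Fkbp9 (0.916), Nfib (0.910) and Thra (0.903). Csf1r had Cd68 (0.878), Adgre1 (0.875), Pilrb2 (0.873), C1qc (0.867) and Ptpro (0.866), of which Cd68, Adgre1 and C1qc are macrophage markers used for the naming. For Csf2ra these were Slc15a3 (0.897), Slc11a1 (0.896), Mpeg1 (0.889), Cd300lb (0.871) and Tbxas1 (0.867). Csf2rb was followed by Csf2rb2 (0.860), Gm6377 (0.852), Pirb (0.850), Gm49339 (0.834) and Nfam1 (0.817). For the sparse genes, Il34 had Atp1b2 (0.893), Kcna1 (0.879), Enox1 (0.879), Sorcs1 (0.850) and Art3 (0.843), and Flt3 had Hepacam2 (0.842), Siglecg (0.809), Upb1 (0.807), Ccl22 (0.753) and 2010309G21Rik (0.744). The gene nearest to Csf2rb was thus the copy with which it shares part of its sequence, whereas Csf1, Csf1r and Csf2ra shared none of their 5 nearest genes.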

How the data were processed

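RNA of single cells was measured in 4 libraries of the Chromium 3' kit v2 (10x Genomics), per the labels. Per the submitters' processing notes, Cell Ranger 2.1.2 and mm10 were used. What the authors deposited is a table of raw UMI counts for each library, genes by barcodes, with 2187, 9347, 2095 and 2178 barcodes and 18624525, 29370967, 13715023 and 13181305 UMIs in the arch, adventitia, descending a and descending b. Pairs of libraries shared 4 to 31 barcodes.

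The 7 genes and the gene lists were chosen with earlier results of these data known. Of the other genes, those named are the list genes with the lowest adjusted p, at most 4 for each list and comparison, and the 5 genes nearest to each member by correlation; some genes of the lists are not reported here by name. Kept barcodes had 200 genes or more and a mitochondrial share of 10% or less (2172, 8497, 2030 and 2132). Scrublet in scanpy 1.11.5, at 0.8% doublets per 1000 barcodes, called 24, 2, 6 and 24 doublets by its own threshold, which was 0.0214% of the adventitia, so the highest scores were removed instead (50, 713, 44 and 47), a choice made after seeing the data. Cells were scaled to 10000 UMIs, logged, reduced from 2000 variable genes to 30 components and clustered (15 neighbours, leidenalg 0.10.2, resolution 1.0; phagocytes again at 0.5). Names came from 25 marker lists and needed 3 markers, each in 20% of cells, at 2 times the background and at 10% of the highest cluster; they are not checked by protein.

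UMIs were summed per class and library and tested in R 4.3.3 with edgeR 4.0.16 (TMM, filterByExpr, quasi-likelihood, Benjamini-Hochberg), after tests on simulated data. Residual degrees of freedom were 6 for classes, 2 for macrophage types and 1 between libraries. DESeq2 1.42.0, RLE factors, no filter, doublets kept, members kept among the clustering genes, no library block and each library left out were the alternatives. Shares have exact Clopper-Pearson and levels exact Poisson 95% intervals.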

Additional observations from a re-analysis of the deposited data

Results flagged for a closer look

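In 6 results a change between libraries differed between 2 cell classes by edgeR's test of the difference itself. The first concerned the arch. Csf1r was 5.28 CPM in arch endothelial cells, against 3.17 and 3.54 CPM in descending ones, and 567 CPM in arch macrophages, against 926 and 955 CPM in descending ones. The change in endothelial cells minus that in macrophages was 1.28 on the log2 scale (adjusted p = 0.0123; 1.7% of genes passed), with the endothelial level at background.

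The others concerned the adventitia relative to the descending aorta. Csf2rb rose in endothelial cells, and that change minus the one in macrophages was 7.74 (adjusted p = 8.93e-13). Csf1r in fibroblasts minus that in macrophages was 1.56 (adjusted p = 0.0154; 4% of genes passed), with the fibroblast level at background. Between fibroblasts and endothelial cells the difference in change was 1.51 for Csf1 (adjusted p = 0.000177), -7.61 for Il34 (adjusted p = 6.06e-05) and -4.76 for Csf2rb (adjusted p = 0.0151). The endothelial and fibroblast cells compared lay in different clusters in the adventitia and in the intima, and no cause was tested.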

How the results depend on the processing

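Csf1, Csf1r and Csf2ra kept their direction and call between classes and between macrophage types under every alternative run. Csf2rb in macrophages against endothelial cells passed with no filter on low counts (log2 3.37, adjusted p = 0.0466), with DESeq2 (4.55, adjusted p = 0.000117) and without the adventitia (5.94, adjusted p = 2.79e-07), and ranged from 2.42 to 5.94 with a library left out. Against fibroblasts it ranged from 5.25 to 6.29 with a library left out and was not called without the arch (adjusted p = 0.102), descending a (0.0549) or descending b (0.0686), or with no library block (4.21, adjusted p = 0.0958). The library block changed no other call; it pairs classes of 1 cell suspension. No paired analysis was possible between libraries because the groups share fewer than 2 replicate numbers.

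With DESeq2, adventitial fibroblasts lost the calls of Il34 (1.58), Csf1r (1.20) and Csf2rb (2.96; adjusted p = 0.941). Keeping doublets lost Il34 (1.62) and Csf2rb (2.33, adjusted p = 0.0697) there and gained Csf1r in adventitial endothelium (1.52, adjusted p = 0.0266). Signs of uncalled values turned for Il34 in macrophages against endothelial cells (0.95, DESeq2), Csf1 in adventitial macrophages (0.29, doublets kept), Csf2ra in arch fibroblasts (0.0020, DESeq2; 0.020, doublets kept), Csf1 in arch fibroblasts (0.017, doublets kept) and Csf2ra in macrophages by type, chosen after seeing the data (arch -0.22 in the Lyve1 type and -0.060 in the resident type; adventitia 0.14 against the descending Lyve1 type).

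Leaving out a descending library leaves no test. The arch values then ranged from 2.58 to 2.68 (Il34), 0.65 to 0.81 (Csf1r), 0.75 to 1.00 (Csf2rb) and -0.17 to 0.081 (Csf2ra) in endothelial cells, -4.21 to -3.76 (Csf2rb), -0.16 to 0.18 (Csf2ra) and -0.23 to 0.26 (Csf1) in fibroblasts, and -0.39 to 0.24 (Csf2rb) in macrophages. The adventitial values ranged from 10.05 to 10.16 (Il34), 7.65 to 7.90 (Csf2rb) and -0.25 to 0.0054 (Csf2ra) in endothelial cells, 2.74 to 3.02 (Csf2rb) and -0.54 to -0.20 (Csf2ra) in fibroblasts, and -0.43 to 0.20 (Csf2rb) in macrophages.

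Numbers of genes called moved more. Between macrophages and endothelial cells 4658 became 3067 without descending b, and between fibroblasts and endothelial cells 3982 became 2308 to 2654 without 1 intimal library. Between macrophage types 876 became 461 with DESeq2 and 490 without the arch. With DESeq2 the arch counts were 73 against 404 in macrophages, 196 against 1448 in endothelial cells and 51 against 578 in fibroblasts, and the adventitial counts 149 against 739, 2293 against 4840 and 596 against 2898. Arch macrophages gave 167 with no filter, 54 in the Lyve1 type and 39 in the resident type, and arch fibroblasts 241 with doublets kept. The cause was not tested. Depth limits Csf2, Il34 and Flt3, which have 17, 114 and 78 UMIs in all, and the intervals cover counting error only.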
